A study of Drosophila melanogaster with 3 samples.

Results

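The genes described here encode trithorax group proteins and ATP-dependent chromatin remodellers. They are 10 genes chosen by name, brm, mor, osa, Iswi, Mi-2, kis, dom, Chd1, trx and ash1, out of 13922 protein-coding genes of the fly. The choice was made with earlier results of these data known, so shares at these genes are descriptions and do not test enrichment. The data are ChIP-seq peaks from S2 cells, which derive from late Drosophila melanogaster embryos and resemble blood cells. Chromatin was immunoprecipitated with anti-SMARCAD1 antibodies in 1 library and with anti-CBP antibodies in another, and an input DNA library was not used here. All cells, including those of the input, had received EGFP dsRNA, the nonspecific control of the RNAi experiments, for 6 h at 26 °C and were then cultured for a further 72 h. Neither protein was the target of this dsRNA. Both antibodies were custom-made, by immunising rabbits with recombinant fly protein. No expression was measured in these tables, so the identity of the cells was taken from the labels.

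The tables hold 3211 SMARCAD1 peaks and 3762 CBP peaks. Each entry pairs a peak with a gene and gives the position and width of the peak, its class relative to the gene and its distance to the transcription start site (TSS). No read counts, scores or P values are given, so depth is unknown and a gene without a peak cannot be told apart from a gene below the detection limit. Each antibody has 1 library without replicates, so SMARCAD1 and CBP were not tested against each other and every difference describes these libraries alone. Exact Clopper-Pearson 95% intervals are given for shares and cover counting error only. Coordinates are those of the tables. None of the 9 genes listed there has the start or end that it has in Release 6, although the methods name dm6.

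Chromatin remodellers use the energy of ATP to slide, evict or exchange nucleosomes, and the Snf2 family to which SMARCAD1 belongs falls into subfamilies such as SWI/SNF, ISWI, CHD and the Swr1-like group. Trithorax group genes were found in flies as activators that keep Hox genes on, against repression by the Polycomb group. They include remodeller subunits (brm, mor, osa, kis) and histone methyltransferases (trx, ash1). CBP is the acetyltransferase that modifies histones at active promoters and enhancers, and in flies it works together with Trx and Brm in marking active chromatin.

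A peak of at least 1 antibody was listed at 9 of the 10 genes (90%, 95% interval 55.5 to 99.7%), against 39.7% of all protein-coding genes. SMARCAD1 peaks were listed at 7 genes (70%, 34.8 to 93.3%; 28.6% of all genes), namely brm, mor, osa, Iswi, kis, trx and ash1. CBP peaks were listed at 8 genes (80%, 44.4 to 97.5%; 31.5% of all genes), namely mor, osa, Iswi, Mi-2, kis, dom, trx and ash1. Entries of both antibodies were found at 6 genes (60%, 26.2 to 87.8%), against 20.4% of all genes. Of the others, brm had a SMARCAD1 peak only (1 of 10, against 8.15% of all genes), Mi-2 and dom had CBP peaks only (2 of 10, against 11.1%), and Chd1 had none. When only the entry of the gene with the nearest TSS was counted, the number of genes was 4 for SMARCAD1 and 6 for CBP, because many of these peaks also lie near the start of a neighbouring gene. The share of all genes under this definition was not computed, so these counts cannot be set against the shares above. The 9 listed genes are long, with a median length of 18.4 kb against 2.46 kb for all genes in the tables, and longer genes can hold more peaks. The part of length in these counts was not tested.

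The start of the gene was covered by a SMARCAD1 peak at 5 genes (brm, mor, osa, Iswi and trx; 50%, 18.7 to 81.3%), against 18% of all protein-coding genes. It was covered by a CBP peak at 7 genes (mor, Iswi, Mi-2, kis, dom, trx and ash1; 70%, 34.8 to 93.3%), against 24.2% of all genes. Both antibodies covered the start at 3 genes, mor, Iswi and trx (30%, 6.67 to 65.2%), against 12.6% of all genes. At the other 6 listed genes a single antibody covered the start. It was SMARCAD1 at brm and osa (2 of 10, against 5.39% of all genes) and CBP at Mi-2, kis, dom and ash1 (4 of 10, against 11.5%). With either antibody, 9 of 10 starts were covered, against 29.5% of all genes. A stricter definition, a peak centre within 500 bp of the TSS, left 2 SMARCAD1 starts and 3 CBP starts. Its share over all genes was not computed, so these counts have no background here.

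**Figure D1:**
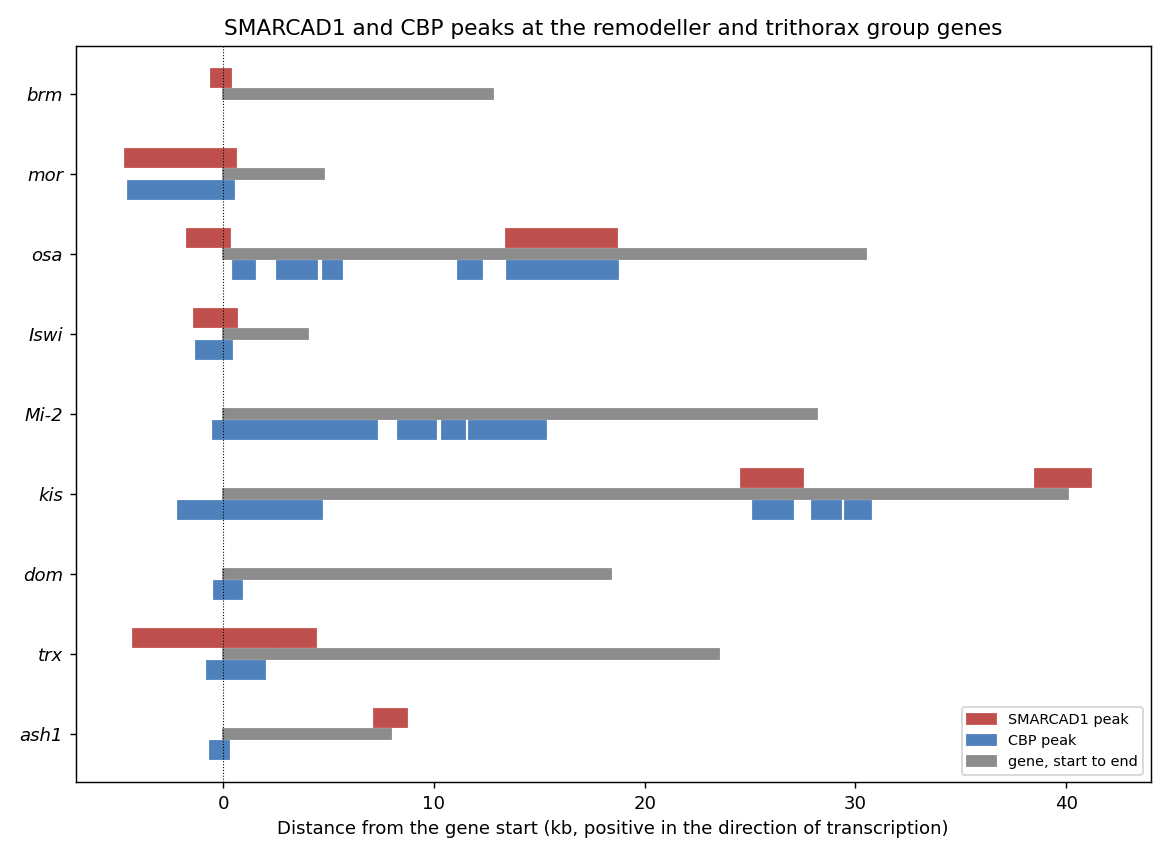
Peaks listed at 9 of the 10 genes, drawn to scale by distance from the gene start (horizontal axis, kb, positive in the direction of transcription), with SMARCAD1 peaks above and CBP peaks below the gene (grey bar). At mor, Iswi and trx both antibodies cover the start. At ash1 and kis a SMARCAD1 peak lies over the end and a CBP peak over the start. The 2 SMARCAD1 peaks of trx are 30 bp apart and appear joined.

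Among the SWI/SNF subunit genes, peaks of both antibodies overlapped at mor and osa, while brm had a SMARCAD1 peak alone. brm encodes the ATPase of the complex, mor a scaffold subunit, and osa the subunit that distinguishes the BAP form. At brm (3L, from 15963182 to 15975969, minus strand), a single SMARCAD1 peak of 957 bp covered the start, with its centre 81 bp upstream of the TSS. No CBP peak overlapped brm, and the nearest began 4702 bp from its TSS, at the gene listed as DNApol-delta. Of the 697 genes whose start was covered by SMARCAD1 without a CBP entry and whose chromosome holds a CBP peak, the median distance to the nearest CBP peak was 5737 bp (quartiles 2347 and 13865 bp). brm thus lay near the middle of this group, as 393 of them (56.4%) were at least as far away. A start covered by SMARCAD1 without a CBP entry was found at brm alone of the 5 genes with a covered start, against 25.3% of all such genes.

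At mor (3R, from 11793855 to 11798631, minus strand), both antibodies gave a broad peak over the start. The SMARCAD1 peak was 5247 bp wide, with its centre 2016 bp upstream of the TSS, and the CBP peak was 4994 bp wide, with its centre 1999 bp upstream. The CBP peak lay wholly within the SMARCAD1 peak and filled 95.2% of it, and the edges differed by 109 and 144 bp. Most of both peaks lay outside mor, over the start of Hel89B, a gene for another Snf2-type ATPase that is transcribed in the opposite direction from a start 389 bp away. Only 5.95% of all SMARCAD1 peaks and 4.41% of all CBP peaks were at least as wide.

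At osa (3R, from 13513540 to 13544059, minus strand), the antibodies shared a broad peak in the middle of the gene and differed at its start. The shared peak was 5251 bp wide for SMARCAD1 and 5259 bp wide for CBP, with centres 16058 and 16111 bp downstream of the TSS. The peaks had 5202 bp in common, 99.1% of the SMARCAD1 peak and 98.9% of the CBP peak. Both were also listed at the neighbouring gene CG31249, as upstream of it, and its TSS was the nearest to them. This shared peak cannot be assigned to either gene here. Of all 2024 overlapping pairs of peaks in the tables, 0.642% overlapped as completely, and the median pair shared 80.3% of the SMARCAD1 peak and 100% of the CBP peak. Over the start of osa lay a SMARCAD1 peak of 2040 bp, centred 689 bp upstream of the TSS and shared with the start of pxt. CBP had no peak over the start and instead 4 further peaks inside the gene, 1034, 1936, 925 and 1108 bp wide, centred 989, 3511, 5199 and 11713 bp downstream of the TSS. The first of these came to within 142 bp of the SMARCAD1 peak without overlapping it. In all, 18.3% of osa was under SMARCAD1 peaks and 33.6% under CBP peaks.

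Among the ATPase genes of other remodeller families, Iswi and kis had peaks of both antibodies, Mi-2 and dom of CBP only and Chd1 of neither. Iswi encodes the ATPase of the NURF, ACF and CHRAC complexes, which slide and space nucleosomes. At Iswi (2R, from 8524123 to 8528133, plus strand), a SMARCAD1 peak of 2040 bp and a CBP peak of 1723 bp covered the start, centred 351 and 445 bp upstream of the TSS. The CBP peak lay within the SMARCAD1 peak and filled 84.5% of it. Both peaks also covered the start of the gene pair CG33671 and CG33672, transcribed the other way from a start 457 bp away, and reached the end of spt4, which encodes an elongation factor. In both tables the nearest TSS to these peaks was that of CG33672, so Iswi would be missed if only the nearest gene were counted.

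Mi-2 encodes the CHD-type ATPase of the NuRD complex, which couples remodelling to histone deacetylation. At Mi-2 (3L, from 19875151 to 19903309, minus strand), CBP gave 4 peaks and SMARCAD1 none. The widest CBP peak, of 7772 bp, covered the start and was exceeded or equalled in width by only 42 of the 3762 CBP peaks, itself included. The other CBP peaks were 1822, 1127 and 3647 bp wide and were centred 9201, 10936 and 13474 bp downstream of the TSS, with gaps of 1007, 261 and 151 bp from the start inwards. Together the peaks covered 49.3% of the gene, the highest share among the 9 genes. Su(Tpl), which encodes an ELL-type elongation factor and lies within the bounds of Mi-2 on the same strand, had the nearest TSS for all 4 peaks. The widest of them covered its start too, and the peaks cannot be assigned to either gene from these tables. The nearest SMARCAD1 peak began 9080 bp from the TSS of Mi-2, at Su(z)12. A start covered by CBP without a SMARCAD1 entry was found at Mi-2 and dom among the 7 genes with a covered start, against 35.6% of all such genes.

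kis encodes a CHD-type ATPase of the trithorax group that in flies promotes transcription elongation. At kis (2L, from 210732 to 250795, minus strand), the antibodies marked different ends of the gene and met in its interior. A CBP peak of 6799 bp covered the start and, beyond it, the whole of Rpp30, and 1.75% of all CBP peaks were at least as wide. A SMARCAD1 peak of 2661 bp covered the end of kis together with the end of CG11490, which is transcribed towards it. The nearest SMARCAD1 peak to the start of kis lay 22520 bp away. Inside the gene, a SMARCAD1 peak of 2903 bp contained a CBP peak of 1891 bp, with centres 26043 and 26094 bp downstream of the TSS. Another 2 CBP peaks of 1355 and 1260 bp followed further downstream, and the nearer one was 455 bp from the SMARCAD1 peak. All the peaks inside kis were also listed at CG13693, as upstream of it. RefSeq places this coding gene within kis, and its TSS was the nearest to each of them. These inside peaks cannot be assigned to either gene here. SMARCAD1 peaks covered 11.1% of kis and CBP peaks 22.9%.

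dom encodes the ATPase of the fly Tip60 and Swr1-type complexes, which exchange the histone variant H2A.V. At dom (2R, from 17210949 to 17229352, plus strand), a single CBP peak of 1309 bp covered the start, centred 227 bp downstream of the TSS. The peak also covered the start of CG30394, 107 bp away on the other strand. The nearest SMARCAD1 peak lay 25578 bp from the TSS of dom, and 23% of the 1284 genes with CBP over the start and no SMARCAD1 entry were at least as far from one (median 7709.5 bp). For Chd1, a CHD-type ATPase linked to elongation and the deposition of histone H3.3, neither table had an entry under its symbol or a synonym. In the RefSeq order of genes, its direct neighbours CG9643 and Bem46 had no entry either, and the next genes out with an entry were CG3165 with CBP on one side and CG3558 with both antibodies on the other. The position of Chd1 is not in the tables, so no distance is given.

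The histone methyltransferase genes differed from each other. trx encodes a methyltransferase for histone H3 of the MLL family and ash1 another that counters Polycomb repression. At trx (3R, from 10089080 to 10112623, minus strand), SMARCAD1 gave a peak of 6780 bp over the start and another of 1880 bp further inside the gene, 30 bp from the first and centred 3469 bp downstream of the TSS. Only 54 of the 3211 SMARCAD1 peaks (1.68%) were at least as wide as the first, the widest SMARCAD1 peak at any of the 10 genes. The CBP peak over the start of trx was 2767 bp wide, with its centre 611 bp downstream of the TSS, and lay wholly within the wide SMARCAD1 peak, of which it filled 40.8%. A further 43.3% of that SMARCAD1 peak was filled by a CBP peak of 2935 bp listed at CG12207, the gene on the other side, whose start is 2171 bp from that of trx. A region called as 1 peak for SMARCAD1 was therefore called as 2 for CBP. The centre of the SMARCAD1 peak, 891 bp upstream of the TSS, lay 1502.5 bp from that of the CBP peak of trx. SMARCAD1 peaks covered 18.6% of trx and CBP peaks 8.47%.

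At ash1 (3L, from 19583873 to 19591848, minus strand), the peaks lay at opposite ends of the gene. CBP gave a peak of 872 bp over the start, centred 162 bp upstream of the TSS, which also covered the start of Taf6, a TFIID subunit gene that begins 339 bp away on the other strand. SMARCAD1 gave a peak of 1529 bp over the end of ash1, centred 7942 bp downstream of its TSS and shared with the start of the next gene, CG14100. The gap between the SMARCAD1 and CBP peaks was 6905 bp. SMARCAD1 over the end and not the start, with CBP over the start and not the end, was seen at 2 of the 6 genes with entries of both antibodies, ash1 and kis, against 5.07% of the 3055 such genes in the tables. The opposite arrangement was seen at none of the 6 and at 1.15% of the 3055. The 3055 genes were not matched for length. ash1 (8.0 kb) and kis (40.1 kb) are longer than the median listed gene (2.46 kb), and the part of length was not tested.

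Over the 9 listed genes, 10 SMARCAD1 peaks and 18 CBP peaks were found, 1.8 CBP peaks for each SMARCAD1 peak, against 1.17 over the whole tables. The excess of CBP peaks lay inside the genes. Of the CBP entries, 11 of 18 (61.1%, 35.7 to 82.7%) were inside the gene, from osa, kis and Mi-2 alone, against 18.6% of all CBP entries. The interval treats the peaks of 1 gene as independent, which they are not. The nearest TSS was that of another gene for the inside CBP peaks of kis and Mi-2 and for the broad one of osa. The same held for the inside SMARCAD1 peaks of kis and osa. With only the entry of the nearest TSS counted, the peaks were 5 for SMARCAD1 and 9 for CBP. osa, kis and Mi-2 are long, and in all listed genes of at least 20 kb the share of CBP entries inside the gene was 68.8%. Beside it stand 11 of 14 (78.6%) at trx, osa, Mi-2 and kis, the 4 genes described of that length. Of the SMARCAD1 entries, 3 of 10 were inside the gene, against 17.5% of all entries. At the same 4 long genes they were 3 of 6, against 66.8% in all listed genes of at least 20 kb. Entries over the end of the gene were 2 of 10 for SMARCAD1 (24.1% of all entries) and 0 of 18 for CBP (14.8%). At osa (5 CBP peaks), kis (4) and Mi-2 (4) there were 4 or more CBP peaks, 3 of the 4 long genes, against 16.7% of the 424 listed genes of at least 20 kb. None of the same 4 long genes had 4 or more SMARCAD1 peaks, against 12.5% of the 424, and 4 genes are too few to tell these apart. No gene of the 10 had more than 2 SMARCAD1 peaks. In total, SMARCAD1 peaks covered 16.9 kb (9.91%) and CBP peaks 37.4 kb (22%) of the 170.2 kb of these genes. The medians of the covered share per gene were closer, 11.1% for SMARCAD1 and 10.4% for CBP, and the larger CBP total came from Mi-2, osa and kis.

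SMARCAD1 peaks at these genes had a median width of 2350.5 bp (range 957 to 6780 bp), against 1792 bp over all SMARCAD1 peaks. CBP peaks at these genes had a median width of 1772.5 bp (872 to 7772 bp), against 1487 bp over all CBP peaks. Widths of at least 5000 bp were found for 3 of 10 SMARCAD1 peaks, at mor, osa and trx, against 6.76% of all SMARCAD1 peaks. They were found for 3 of 18 CBP peaks, at osa, Mi-2 and kis, against 4.39% of all CBP peaks. The CBP peak at mor, of 4994 bp, was just below this width. The SMARCAD1 peaks lay a median of 2742.5 bp from the TSS, in absolute distance, against 1548 bp over all SMARCAD1 entries. This median depended on single genes, and was 4979 bp without trx, 2742.5 bp without osa and 1453.5 bp without kis. The CBP peaks lay a median of 4355 bp away, against 956.5 bp over all CBP entries. With only the nearest gene of each peak counted, these medians at the described genes were 891 bp (SMARCAD1) and 1274 bp (CBP).

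**Figure D2:**
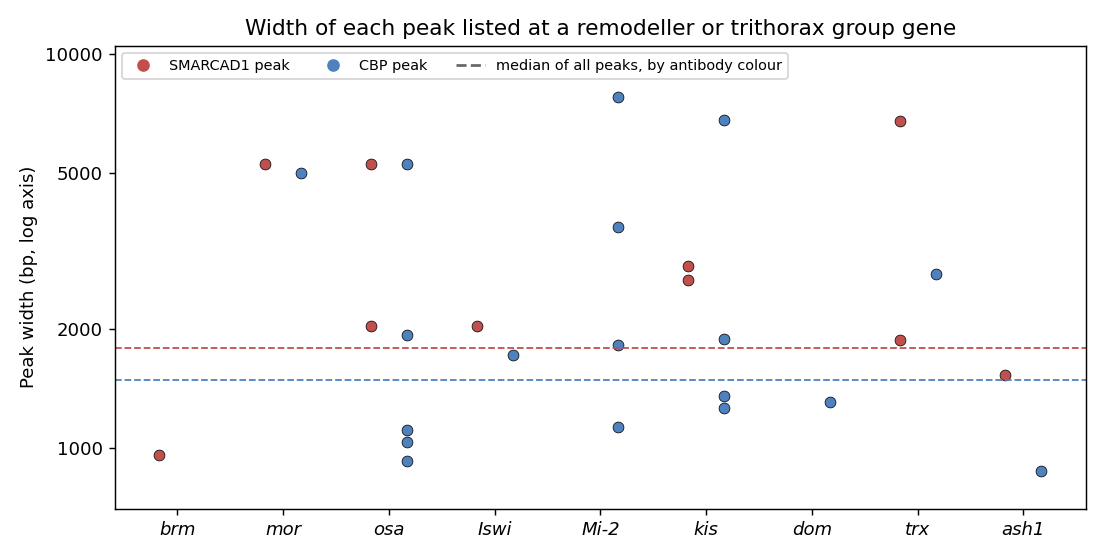
Width of every peak listed at the 9 genes (vertical axis, bp, logarithmic), with SMARCAD1 points left of CBP points at each gene. Dashed lines mark the medians over all peaks, 1792 bp (SMARCAD1) and 1487 bp (CBP), and single peaks range from 872 bp (CBP at ash1) to 7772 bp (CBP at Mi-2).

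A peak of the other antibody overlapped 5 of the 10 SMARCAD1 peaks (50%, 18.7 to 81.3%), against 58.9% of all SMARCAD1 peaks. A SMARCAD1 peak overlapped 5 of the 18 CBP peaks (27.8%, 9.69 to 53.5%), against 52.7% of all CBP peaks, which lies inside the interval. By class, the overlapping CBP peaks were 3 of 7 over a start and 2 of 11 inside a gene. The overlapping SMARCAD1 peaks were 3 of 5 over a start, 2 of 3 inside a gene and 0 of 2 over an end. In all listed genes of at least 20 kb, 51.1% of the CBP peaks inside the gene overlapped a SMARCAD1 peak. For SMARCAD1 peaks inside these genes, 62.1% overlapped a CBP peak. The shares for all peaks over a start or an end are not given here. The peaks of 1 gene are not independent of each other, and 4 of the CBP peaks without overlap came from Mi-2 and 4 from osa. Among the 6 genes with entries of both antibodies, the entries overlapped at 5, mor, osa, Iswi, kis and trx, as at 89.4% of all genes with entries of both, and ash1 was the exception.

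Most of the covered starts were shared with a gene on the other strand. This held for 8 of the 9 listed genes with either antibody, against 63.4% of all genes with a covered start. For SMARCAD1 it held at 5 of 5 genes (62% of all) and for CBP at 5 of 7 (64.9% of all), the exceptions being trx and kis. The distance between the paired starts ran from 94 bp, between Mi-2 and the splicing factor gene listed as CG7757, to 2171 bp at trx. At brm the partner was Arf72A, 252 bp away. At osa it was pxt, 1115 bp away. A peak over such a pair cannot be assigned to either gene, which limits what the count of bound starts says about the remodeller genes themselves.

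**Figure D3:**
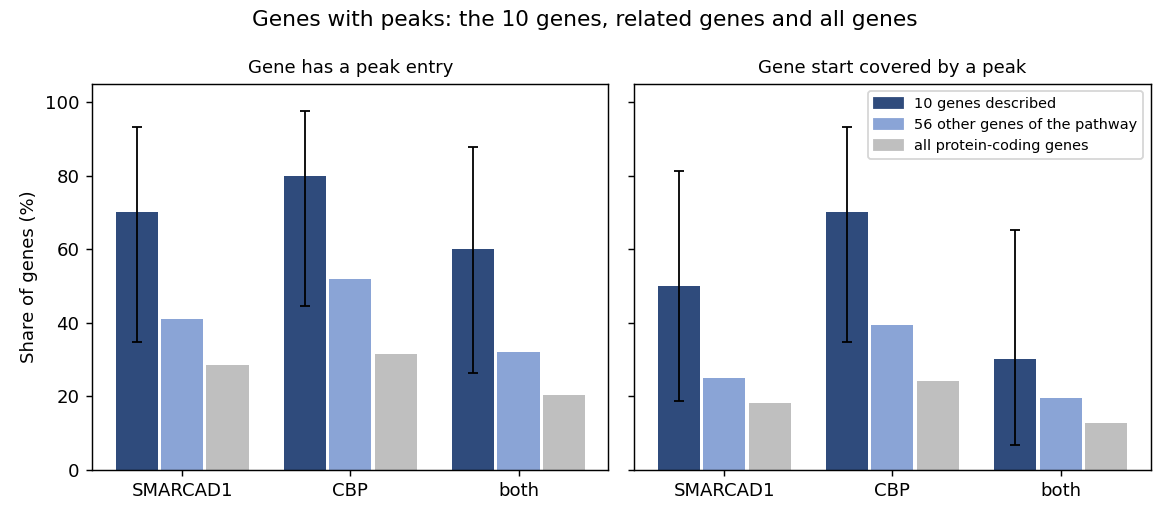
Share of genes (vertical axis, %) with a peak entry (left) and with the start covered by a peak (right) for SMARCAD1, CBP and both, in the 10 genes described, 56 other genes of the pathway and all 13922 protein-coding genes. Error bars are exact 95% binomial intervals for the 10 genes, and in each set of bars the 10 genes are the highest and all genes the lowest. Both the 10 genes and the 56 were chosen with earlier results of these data known.

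Other genes of the pathway were taken from a list of 56 partner subunits, related ATPases and further trithorax group genes. SMARCAD1 entries were found at 23 (41.1%), CBP entries at 29 (51.8%) and entries of both at 18 (32.1%), between the values of the 10 genes and those of all genes. An entry can also name a gene that the peak does not touch. Counted by position over the gene, peaks were found at 22 (SMARCAD1) and 26 (CBP) genes. Starts were covered by SMARCAD1 at 14 (25%), by CBP at 22 (39.3%) and by both at 11 (19.6%). For comparison with each complex below, 28.6% of all protein-coding genes had SMARCAD1 entries and 31.5% had CBP entries. Starts were covered at 18% (SMARCAD1), 24.2% (CBP) and 12.6% (both) of all genes. Each complex holds few genes, and differences between complexes were not tested. Of the 8 other SWI/SNF subunits, 4 (50%) had SMARCAD1 and 3 (37.5%) had CBP entries. Both antibodies covered the start only at Bap55, which encodes an actin-related subunit, with peaks of 986 bp (SMARCAD1) and 945 bp (CBP) centred 78 and 132 bp upstream of the TSS. Of the 7 ISWI partners, 2 (28.6%) had entries of each antibody, near the shares of all genes, and both antibodies covered the start in each case. They were Caf1-55, a histone-binding subunit (listed as Caf1), with peaks of 2138 bp (SMARCAD1) and 1899 bp (CBP), and tou, with 3 peaks of each antibody, 4076 bp (SMARCAD1) and 3781 bp (CBP) wide at the start.

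Of the 6 partners of Mi-2, 3 (50%) had SMARCAD1 and 5 (83.3%) had CBP entries. CBP covered the start at 5 (83.3%) and SMARCAD1 at 2 (33.3%). The starts covered by both were those of MBD-like, a methyl-CpG-binding domain gene, and simj, the p66 subunit. At MBD-like the peaks were narrow, 1314 bp (SMARCAD1) and 1164 bp (CBP), and at simj the start peaks were 5763 bp (SMARCAD1) and 3802 bp (CBP) wide. Of the 11 genes of the Tip60 and INO80 complexes, 4 (36.4%) had SMARCAD1 and 6 (54.5%) had CBP entries. Both were over the start at E(Pc) and MRG15 (18.2%). Of the 11 COMPASS genes, which encode the complexes of Trx and related methyltransferases, 1 (9.09%) had a SMARCAD1 entry and 5 (45.5%) had a CBP entry. The gene with both was Set1 (listed as CG40351), whose CBP peak was centred 21257 bp upstream of the TSS. Its SMARCAD1 peaks were centred 50547 bp upstream and over its end, and neither overlapped a CBP peak. The CBP peak at Mnn1 was centred 6434 bp upstream. SMARCAD1 covered 0 of the 11 starts and CBP 2 (18.2%). Of the 6 other Snf2-type ATPases, 3 (50%) had SMARCAD1 and 2 (33.3%) had CBP entries. Hel89B counts among them with the peaks over its start that it shares with mor and with a further peak of each antibody over its own end, 3092 bp (SMARCAD1) and 2757 bp (CBP) wide. A last group holds 7 further trithorax group genes and cofactors, among them Trl and tna, and includes genes outside the classical trithorax group such as nej. Of these 7 genes, 6 (85.7%) had SMARCAD1, 6 (85.7%) had CBP and 5 (71.4%) had both, against 20.4% of all genes with both. nej is counted with both antibodies through the entries of CG15321, described below.

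Of the genes of the immunoprecipitated proteins, Etl1 was listed with peaks over its own start and end, and nej only through entries of CG15321. At Etl1, the SMARCAD1 gene (listed as CG5899), both antibodies had a peak over the start, with widths of 1076 bp (SMARCAD1) and 942 bp (CBP), centred 215 and 219 bp upstream of the TSS. Both also had a peak over its end, 5777 bp wide for SMARCAD1 and 3047 bp for CBP. For nej, the CBP gene, the only entries were under CG15321, now a synonym of nej, with a peak of 2143 bp for SMARCAD1 and of 1299 bp for CBP. Their centres lay 2118 and 1913 bp upstream of the start of CG15321, and whether they belong to nej cannot be told from the tables.

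**Figure D4:**
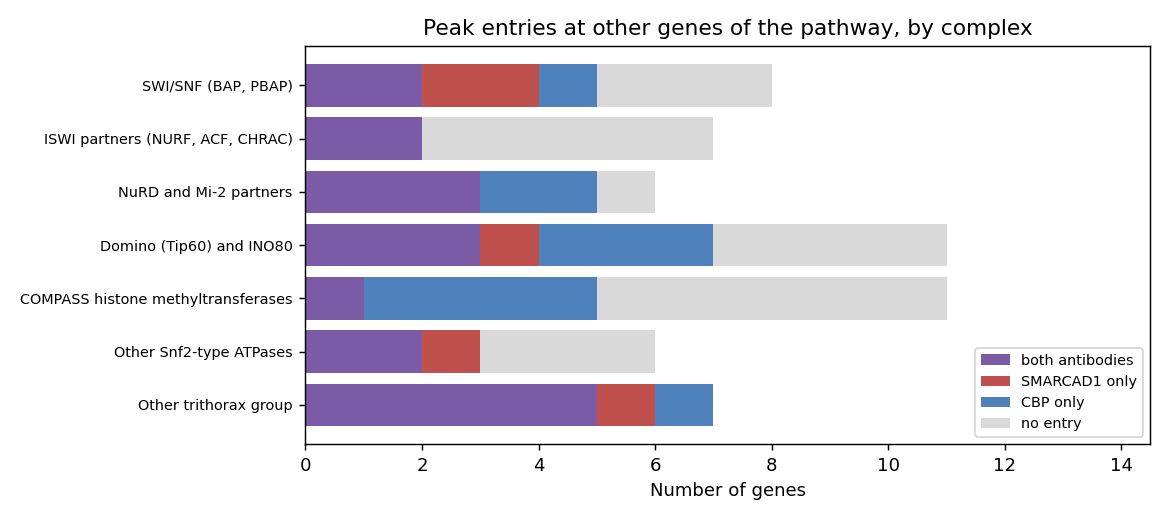
Number of genes (horizontal axis) of 7 groups of pathway genes with entries of both antibodies, of SMARCAD1 only, of CBP only or of neither. The COMPASS group has 1 gene with both and 4 with CBP only out of 11, and each of the 7 genes in the bottom row, further trithorax group genes and cofactors, has an entry, 5 of them with both. Entries include peaks outside the gene, as at Set1 and Mnn1 in the COMPASS group. In the bottom row, nej is counted with both through entries of CG15321, which may not belong to it.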

How the data were processed

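ChIP-seq libraries of S2 cells were made with anti-SMARCAD1 and anti-CBP antibodies, 1 each. Nuclei had been digested with MNase. BWA was used by the authors for mapping, MACS for peak calling against a control and ChIPpeakAnno for assigning genes. The deposited tables give position, width and distance, all in bp, in 5859 SMARCAD1 entries and 6495 CBP entries. A check showed that distances run from the TSS to the peak centre.

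All entries that name a gene were counted, including those of peaks that lie outside the gene. A start was covered where the class was overlapStart or includeFeature, and peaks overlapped from 1 bp. Of 6016 gene names, 5905 (98.2%) were matched to RefSeq symbols of Release 6 by symbol, CG number or a synonym of 1 gene on the same chromosome. RefSeq was used for names, the order and nesting of genes, the set of protein-coding genes and the check of gene bounds against Release 6. Peaks were not placed on its coordinates. Backgrounds are shares of 13922 protein-coding genes of the major chromosome arms, or of all peaks or entries. The software was scipy 1.17.1, pandas 2.3.3, matplotlib 3.10.9, numpy 2.4.6 and Python 3.11.15, and overlap counting was tested on simulated peaks.

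The 10 genes and the pathway list were chosen with earlier results of these data known. All 10 are described. Of the list, the genes of a complex of the 10 with the start covered by both antibodies (at most 4 per complex) and Etl1 and nej are named, and genes that share a peak with the 10. Set1 and Mnn1 are named because peaks counted for them lie outside the gene. The alternatives were nearest entries only, assignment by position, windows around the TSS, stricter overlap, a minimum width of 1000 bp, 1000 bp added around the gene, and leaving out the gene with most peaks. This was osa for CBP, while trx, osa and kis tied for SMARCAD1: trx, first in the list of genes, was left out as planned, and osa and kis in turn as alternatives added after the data were seen. No promoter sequences were used here.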

Additional observations from a re-analysis of the deposited data

How the results depend on the processing

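For 16 values, 56 alternatives were computed, and 49 stayed within 1.5 times a count or covered share, or within the 95% interval of a share or median. With 10 and 18 peaks these intervals are wide, so staying within them does not show that a value is stable. The median CBP distance, for example, went from 4355 bp to 1274 bp with nearest entries only and still counted as within. With only the entry of the nearest TSS, the genes with an entry were 4 for SMARCAD1, the peaks were 5 for SMARCAD1 and 9 for CBP, and the other genes of the pathway with an entry were 12 for SMARCAD1 and 19 for CBP. With peak centres within 500 bp of the TSS, 2 starts counted for SMARCAD1 and 3 for CBP. These follow from the stricter definitions, which drop entries. The shares of all genes under them were not computed. Under the stricter overlaps tried (50% of both peaks, centres within 200 bp, the central 500 bp), 4 of 10 SMARCAD1 and 4 of 18 CBP peaks were shared, since the pair at trx no longer counted. The median SMARCAD1 distance was 4979 bp without trx and, in alternatives chosen after seeing the data, 2742.5 bp without osa and 1453.5 bp without kis, which tie with trx for the most SMARCAD1 peaks. No paired analysis was possible because there were no replicates to pair, with 1 library for SMARCAD1 and 1 for CBP. Peaks could not be filtered on strength, which the tables do not give.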

Other observations

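Some of the broadest peaks in the tables lay at other genes of the pathway, picked here after their values were seen. At simj, a peak of 12252 bp inside the gene was the widest of the 3211 SMARCAD1 peaks, and it overlapped a CBP peak of 8025 bp. At Trl, which encodes the GAGA factor, the SMARCAD1 peak was 9632 bp wide and the CBP peak 8578 bp, with 4 SMARCAD1 and 20 CBP peaks of all at least as wide, these included. At tna, a trithorax group gene for a SUMO ligase-like protein, 5 SMARCAD1 and 6 CBP peaks lay inside the gene and none over its start, and 2 of the SMARCAD1 and 3 of the CBP peaks overlapped.

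RefSeq lists non-coding genes within some of the genes described that the tables do not name, 2 within osa, 2 within Mi-2 and 4 lncRNA genes within kis. It also lists a snoRNA and a microRNA gene within kis, an antisense RNA gene within trx and mostly snoRNA genes within dom. Whether the peaks inside osa, Mi-2, kis and trx lie at such genes was not tested, because the coordinates are of different builds.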
